A study of Mus musculus with 18 samples.

Results

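Islet transcripts of mice lacking TRAF2 in beta cells were compared with those of floxed littermates after high-fat feeding, on 6 of the 18 arrays of the series. The members were taken by their sample titles: the 3 arrays of HFD TRAF2 knockouts and the 3 arrays of HFD controls. The knockout genotype is RIPCre; TRAF2loxP/loxP, in which the rat insulin promoter drives Cre recombinase. The control genotype is given only as floxed littermates. All mice were on a C57BL/6 background and 16 weeks old, and had eaten a high-fat diet (HFD) with 45% of its calories from fat for 8 weeks, from 8 weeks of age. Total RNA of isolated islets, 250 ng per sample, was hybridised to single-colour Affymetrix whole-transcript arrays, and the animals of the series were of both sexes. The other 12 arrays are chow controls, chow TRAF2 knockouts of the same genotypes, and TRAF3 knockouts (RIPCre; TRAF3loxP/loxP) on either diet. The genotypes are those of the sample labels, whereas the design text of the series names TRAF2 for both knockouts. The series asks what constitutive activity of NF-kB inducing kinase (NIK) does in beta cells.

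TRAF2 is an adaptor protein that works with TRAF3 and the ligases cIAP1 and cIAP2 to have NIK degraded. When this complex is lost, NIK accumulates and drives the processing of p100 (Nfkb2) to p52, the non-canonical NF-kB pathway, whereas TRAF2 also carries signals from TNF receptors to canonical NF-kB. In beta cells a separate cytokine-type pathway, in which prolactin, placental lactogen or growth hormone act through JAK2 and STAT5, is known for inducing Tph1, Socs2 and Cish in pregnancy. Whether the controls carry RIP-Cre is not stated in the labels, so an effect of the Cre transgene and one of the TRAF2 deletion cannot be told apart here. Some RIP-Cre transgenes are known to contain a human growth hormone gene fragment. Whether the transgene used here contains one is not given in the sources used here.

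On the deposited log2 scale the 6 arrays correlated with the others of their own group with means from 0.9789, in HFD control 3, up to 0.9923. These correlations are across genes, and genes are not independent replicates. The labels give no sex per sample. By Xist, which is transcribed in females, and the Y-linked gene Eif2s3y, the 3 HFD controls and HFD TRAF2 knockouts 2 and 3 were female arrays (Xist 9.07 to 9.42), and HFD TRAF2 knockout 1 was a male array (Xist 4.49, Eif2s3y 7.85). Each gene was centred on its average of the 18 arrays, and the average of these centred values within a list is called its score. The score of 17 lymphocyte markers was 1.06 and 0.94 in knockouts 2 and 3, against 0.07 in knockout 1 and -0.14 to 0.27 in controls. Among the chow arrays used below, chow control 3 stood apart from the other chow controls in the genes described here, with Tph1 at 8.30 against 4.15 and 4.12.

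Traf2 itself did not pass the test. It read 6.98, 7.03 and 6.46 in the controls and 6.94, 7.15 and 6.90 in the knockouts, a log2 difference of 0.17 ± 0.14 (standard error, SE; adjusted p = 0.975). Its probe set covers the whole transcript, and islets contain cells in which RIP-Cre is not active, so this value does not check the floxed part.

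Loss of TRAF2 on HFD was accompanied by a small set of transcripts that were higher and by almost none that were lower. Of 22180 genes tested, 56 (0.252%) passed an adjusted p under 0.05 in limma, 54 of them higher (0.243%) and 2 lower (0.00902%). The rises were large, with a median log2 fold change of 1.88, against -0.00 for all genes. The smallest was 0.83, 50 exceeded 2-fold, 21 exceeded 4-fold and 10 exceeded 8-fold. In each of the 56 genes the 3 knockout arrays lay on 1 side of the 3 controls, an arrangement that 7.83% of all genes showed with the knockouts above and 6.87% with the knockouts below. At an unadjusted p under 0.05, 680 genes were higher (3.07%) and 586 lower (2.64%).

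The number passing depended on the arrays included. It was 31, 39 and 20 without HFD control 1, 2 or 3, and 24, 32 and 29 without HFD TRAF2 knockout 1, 2 or 3, and 107 with a ductal marker score as a covariate. Without the male array, knockout 1, the 54 genes that rose had a median log2 fold change of 1.84 and a lowest of 0.83. With a sex score as a covariate 45 of the 54 passed, and with the lymphocyte score as a covariate, an alternative chosen after seeing the data, 52 did. No value of a named gene that passed moved by over 1.5 times on the log2 scale when 1 array was left out. The named genes that passed whichever of the 6 arrays was left out were Tph1, Lrrc55, Sftpd, Gbp8, Syt10, Fbxw24, Rerg, Fmo1, Adgrf1, Srbd1, Adarb2, Dnah8, Kcnk10, Kcnj5, Aqp4, B3galnt1, Cish and Ngfr. Those that lost their call whichever of the 6 was left out were Rasgrp1, Crispld2, Krtap13-1, Myo3a, Cym, Lonrf3, Rnf180, Scnn1g, Socs2, Cspg5 and Nhs, and the other named genes that passed lost it without some of the arrays.

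**Figure D1:**
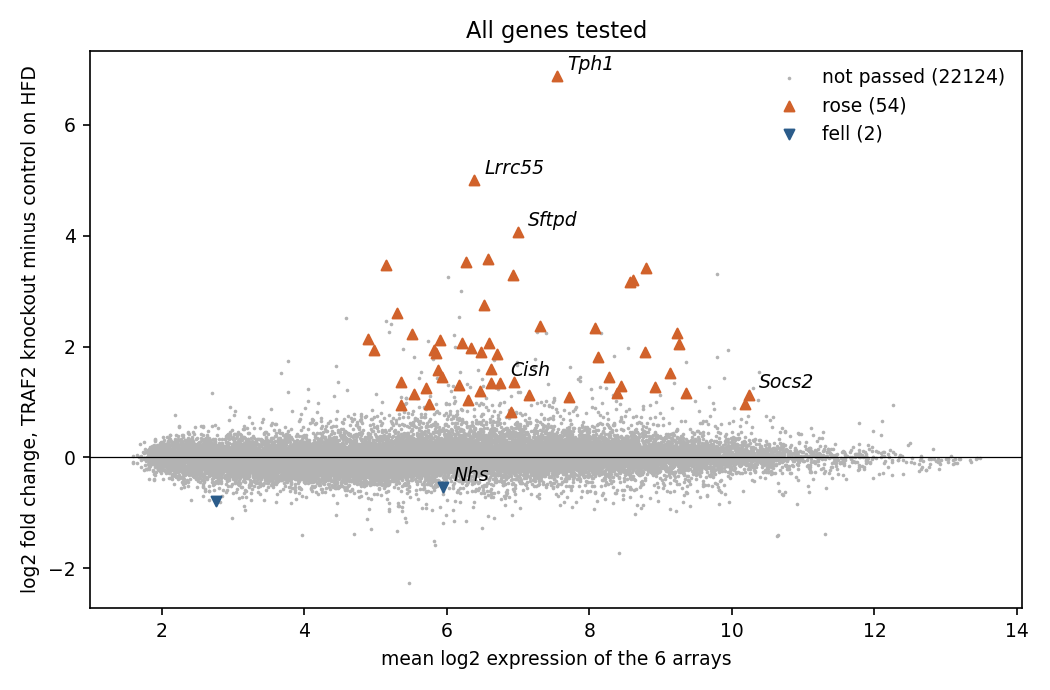
Log2 fold change between HFD TRAF2 knockouts and HFD controls (vertical axis) against the mean log2 expression of the 6 arrays (horizontal axis) for all 22180 genes. Triangles mark the 54 genes that rose and the 2 that fell. The genes that rose reach a log2 fold change of 6.88 for Tph1, whereas both falls lie within 1 log2 unit of 0.

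The largest rise was that of Tph1, tryptophan hydroxylase 1, the rate-limiting enzyme of serotonin synthesis outside the brain. It read 3.76, 3.99 and 4.55 in the controls and 11.37, 10.75 and 10.84 in the knockouts. The groups were far apart, 4.10 ± 0.41 (SD, n = 3) against 10.99 ± 0.34, a 118-fold difference (log2 6.88 ± 0.88 SE, adjusted p = 0.00241). The control mean of Tph1 lies below the median of every array, as does that of 10 of the 54 risen genes in all, among them Lrrc55, Gbp8, Syt10, Fbxw24 and Adgrf1. The size of such a change is uncertain, since no background level was set. Tph2, the tryptophan hydroxylase of neurons, read 4.83, 5.99 and 4.73 in the controls and 7.43, 7.10 and 7.24 in the knockouts (log2 2.07 ± 0.38, adjusted p = 0.0253).

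The other genes of serotonin handling did not pass. Of 14 measured genes for serotonin synthesis, storage and reception, 2 rose and none fell, where 0.243% of all genes rose. Their median log2 fold change was -0.10. All knockouts lay above all controls in 3 of the 14 and below in 2, against 7.83% and 6.87% of all genes. Ddc, the decarboxylase of the step after tryptophan hydroxylase, lay between 9.43 and 9.97 in the controls and between 9.81 and 10.03 in the knockouts (0.12 ± 0.27, adjusted p = 0.99). The vesicular transporter Slc18a1 was above all controls in all 3 knockouts (0.57 ± 0.28, adjusted p = 0.886), while the other vesicular transporter, Slc18a2, differed by -0.15 ± 0.19 (adjusted p = 0.978). The receptor genes Htr1b and Htr2b had all knockouts below all controls (-0.21 and -0.41, adjusted p = 0.95 and 0.625). The serotonin transporter Slc6a4 differed by -0.84 ± 0.47 (adjusted p = 0.953), with control 3 at 7.18 and all other arrays between 5.14 and 5.77.

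**Figure D2:**
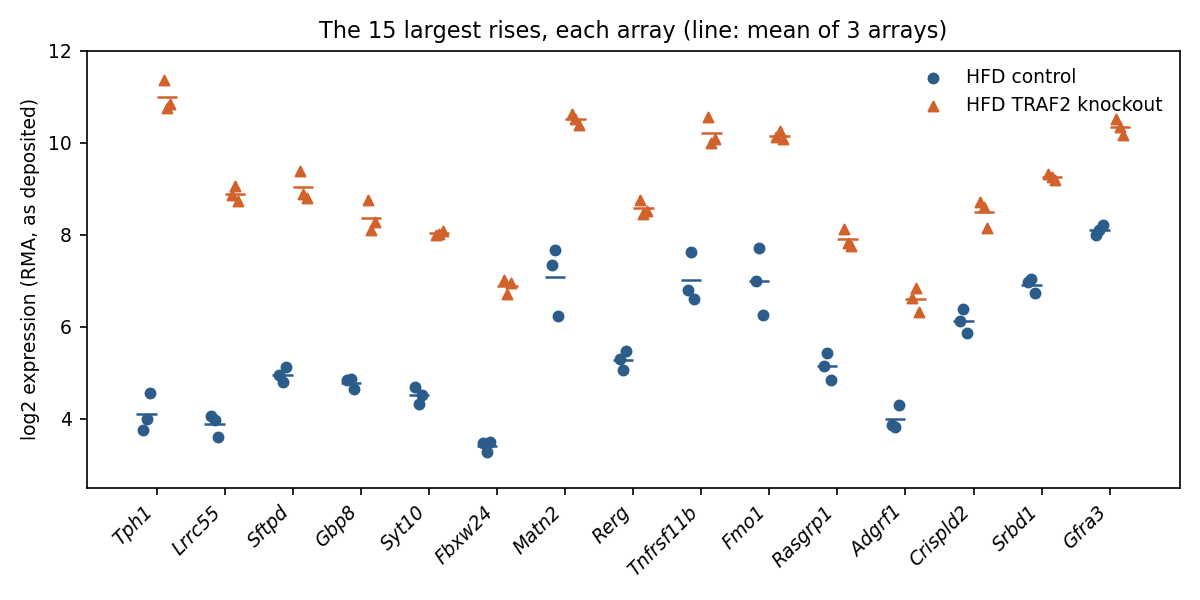
Log2 expression, as deposited, of the 15 genes with the largest rises in the 3 HFD controls (circles) and the 3 HFD TRAF2 knockouts (triangles), with lines at the group means. In each of the 15 genes the lowest knockout array lies above the highest control array, from 3.28 to 3.50 against 6.71 to 7.02 in Fbxw24 and from 8.00 to 8.20 against 10.18 to 10.51 in Gfra3. All 54 genes that rose share this arrangement, which 7.83% of all genes show.

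The list of genes known to respond to prolactin or growth hormone, or to be raised in islets in pregnancy, was described next. Of its 19 measured members 11 rose, none fell and 17 had all knockouts above all controls, where 0.243% of all genes rose and 7.83% had all knockouts above. Its median log2 fold change was 2.07. The list includes genes taken from earlier results of these arrays, so its counts, median and direction were partly set by that choice and are not independent evidence. Its score was -1.39 to -1.13 in the controls and 0.82 to 1.05 in the knockouts. The number of members that rose was 6, 9 and 5 without HFD control 1, 2 or 3 and 6, 7 and 7 without HFD TRAF2 knockout 1, 2 or 3, and it was 10 with the sex score and 12 with the lymphocyte score as a covariate.

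The suppressors of cytokine signalling Cish and Socs2, which STAT5 is known to induce, both rose, but not equally firmly. Cish read 5.89, 6.05 and 6.28 in the controls and 7.46, 7.42 and 7.40 in the knockouts, which put the knockouts 2.55-fold higher (log2 1.35 ± 0.17, adjusted p = 0.00241). A separate probe set of Cish differed by 1.43. Socs2, which restrains growth hormone signalling, read 9.66, 9.61 and 9.73 in the controls and 10.95, 10.64 and 10.82 in the knockouts (log2 1.14 ± 0.21, adjusted p = 0.0268). Its other probe set differed by 0.46. Cish passed whichever array was left out, whereas Socs2 lost its call whichever was left out (adjusted p = 0.0715 to 0.174), and also with the mean of its probe sets (adjusted p = 0.0611) and when every probe set was tested (adjusted p = 0.0518). The transcripts of the transcription factors themselves did not pass, at 0.11 ± 0.12 for Stat5a (adjusted p = 0.977) and 0.25 ± 0.15 for Stat5b (adjusted p = 0.967), nor did the growth hormone receptor Ghr (-0.15 ± 0.14, adjusted p = 0.977).

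Several members of this list encode secreted or surface proteins. Lrrc55, an auxiliary subunit of BK potassium channels, read 4.08, 3.98 and 3.61 in the controls and 8.87, 9.07 and 8.74 in the knockouts, 32.1-fold higher (SE of the log2 difference 0.58, adjusted p = 0.00132). Its other probe set differed by 1.01 on the log2 scale, so the size depends on the probe set. Tnfrsf11b, or osteoprotegerin, a secreted decoy receptor that binds the TNF family ligand RANKL, read 6.79, 7.63 and 6.61 in the controls and 10.56, 10.00 and 10.08 in the knockouts (3.20 ± 0.50, adjusted p = 0.00808). The matrix protein matrilin 2 (Matn2) rose by 3.42 ± 0.51, from 7.34, 7.67 and 6.25 to 10.63, 10.52 and 10.38 (adjusted p = 0.00653). The tight junction gene Cldn8 was above all controls in every knockout, with HFD control 3 (8.96) above controls 1 and 2 (7.51 and 7.93). The Cldn8 difference of 3.31 ± 0.79 did not pass (adjusted p = 0.128). Its SE comes from the fit of all groups, which includes the chow controls, where Cldn8 ran from 4.79 to 9.51 (SD 2.44). The SD of Cldn8 was 0.75 in the HFD controls and 0.19 in the HFD TRAF2 knockouts.

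Intracellular members rose as well. Fbxw24, an F-box protein gene, had the smallest adjusted p of all genes, 0.000825. Its values were 3.47, 3.28 and 3.50 in the controls and 7.02, 6.71 and 6.95 in the knockouts (3.48 ± 0.35). Rasgrp1, an exchange factor that activates Ras, rose by 2.76 ± 0.51 (adjusted p = 0.0274), from 5.16, 5.44 and 4.85 to 8.13, 7.83 and 7.76. Ivd, a mitochondrial enzyme of leucine breakdown, showed little spread among the knockouts, at 9.96, 9.92 and 9.92 against 8.63, 8.95 and 8.72 in the controls (1.17 ± 0.19, adjusted p = 0.0119). The muscle protein gene Neb differed by 2.22 ± 0.45 without passing (adjusted p = 0.0579), and the proliferation marker Mki67 by 0.10 ± 0.49 (adjusted p = 0.994).

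Promoters of the risen genes were searched for TTCNNNGAA, the spaced palindrome that STAT5 is known to bind, because these genes moved together. The motif reads the same on both strands. RefSeq windows from 250 bases before to 50 bases after the start (GRCm38.p6) were found for 39 of the 54 genes. The letters occurred in 5 of these 39 (12.8%), against 9.15% of the 16990 tested genes with a window, so the share was near that of all genes. The stretches of 3 of these genes are shown because they are the matches upstream of the start in genes described by name, with the match in capitals, 5′ to 3′ on the strand of the gene.
Rasgrp1, match beginning at base -120, chr2:117342949-117343037, minus strand: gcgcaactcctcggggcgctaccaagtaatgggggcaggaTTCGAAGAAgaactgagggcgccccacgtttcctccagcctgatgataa
Ivd, match beginning at base -88, chr2:118861866-118861954, plus strand: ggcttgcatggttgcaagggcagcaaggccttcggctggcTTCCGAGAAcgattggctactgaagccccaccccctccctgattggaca
Prok1, match beginning at base -113, chr3:107238717-107238805, minus strand: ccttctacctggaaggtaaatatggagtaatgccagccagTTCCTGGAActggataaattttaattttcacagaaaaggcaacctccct
Prok1 had a further match at base -87, and Cish had matches beginning at bases 1 and 12 of its transcript. The kappaB consensus, searched on both strands, occurred in 4 of the 39 genes (10.3%) and in 10.6% of all genes with a window. A match is a stretch of letters and not a measured binding site.

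Among the large rises outside that list, several encode proteins of secretion and of the cell surface. Sftpd, surfactant protein D, a secreted collectin of innate defence, read 4.96, 4.80 and 5.13 in the controls and 9.39, 8.90 and 8.80 in the knockouts, 16.8-fold higher (log2 4.07 ± 0.52, adjusted p = 0.00241). Syt10, a synaptotagmin that acts as a calcium sensor of vesicle fusion, read 4.69, 4.32 and 4.53 in the controls and 8.00, 8.02 and 8.09 in the knockouts (3.53 ± 0.41, adjusted p = 0.00132). Gfra3, the co-receptor for the neurotrophic factor artemin, read 8.00, 8.11 and 8.20 against 10.51, 10.35 and 10.18 (2.24 ± 0.36, adjusted p = 0.0109). In each of these the lowest knockout lay above the highest control, as in all 54 genes that rose. The adhesion receptor gene Adgrf1 rose by 2.61 ± 0.38 (adjusted p = 0.00601) and the gene of the secreted protein Crispld2 by 2.37 ± 0.45 (adjusted p = 0.0353).

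The remaining 15 largest rises included genes for a small GTPase, an oxidase and an RNA-binding protein. Rerg, a Ras-like GTPase, read 5.30, 5.07 and 5.47 in the controls and 8.76, 8.45 and 8.52 in the knockouts (3.30 ± 0.35, adjusted p = 0.000947). Fmo1, a flavin-containing monooxygenase, read 6.99, 7.72 and 6.26 against 10.12, 10.25 and 10.08 (3.16 ± 0.44, adjusted p = 0.00427), with a wider spread in the controls than in the knockouts. Srbd1, which encodes a protein with an S1 RNA-binding domain, rose by 2.34 ± 0.30 (adjusted p = 0.00241). The 15 largest rises are completed by Gbp8, one of the guanylate-binding proteins that defend cells against intracellular pathogens, at 4.84, 4.87 and 4.65 in the controls and 8.75, 8.11 and 8.28 in the knockouts (3.59 ± 0.53, adjusted p = 0.00601).

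The smaller rises are given here by kind, and were singled out after their values were seen. Potassium channel subunits rose, Kcnk10 by 1.94 ± 0.27 (adjusted p = 0.00418) and Kcnj5, a subunit of G protein-gated channels, by 1.89 ± 0.26 (adjusted p = 0.00418). The water channel Aqp4 rose 3.5-fold, from 7.29, 7.39 and 6.97 to 9.24, 8.88 and 8.96 (adjusted p = 0.00437). So did Scnn1g, a subunit of the epithelial sodium channel, by 1.17 (adjusted p = 0.0451), and Slc2a13, a transporter of myo-inositol, by 1.45 (adjusted p = 0.00682). Among receptors, the p75 neurotrophin receptor Ngfr rose by 1.32 (adjusted p = 0.00375), the reelin receptor Lrp8 by 1.09 (adjusted p = 0.0244), the adhesion receptor Adgrg6 by 2.06 (adjusted p = 0.00929), Gpr26 by 1.58, Ephb6 by 0.97 and Gpr141b by 1.14.

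Genes of secreted peptides and of signalling enzymes also passed. Penk, the precursor of the enkephalins, read 5.73, 6.26 and 5.48 in the controls and 7.80, 7.29 and 7.16 in the knockouts (1.60 ± 0.25, adjusted p = 0.0106). Prok1, a prokineticin, rose by 1.37 ± 0.21 (adjusted p = 0.00808) and Igfbp5, which binds insulin-like growth factors, by 1.29 ± 0.21 (adjusted p = 0.0109). Pde7b, a phosphodiesterase that breaks down cAMP, rose by 1.90 ± 0.32 (adjusted p = 0.0141), and Rph3a, an effector of the exocytosis GTPase Rab3, by 1.97 ± 0.30 (adjusted p = 0.00682). In each of these the knockouts did not overlap the controls, as in all 54 genes that rose.

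Further risen genes encode enzymes of sugar chains, amino acids and RNA, and motor proteins. The glycosyltransferases B3galt1 and B3galnt1 rose by 1.90 and 1.52, the latter with knockouts at 9.89, 9.90 and 9.87. Bcat1, the cytosolic transaminase of branched-chain amino acids, rose by 1.25 ± 0.25 (adjusted p = 0.0464). The mRNA-editing enzyme Apobec1 rose by 1.27 and Adarb2, a relative of the adenosine deaminases of RNA, by 2.23. The myosin Myo3a rose by 2.13 and the dynein heavy chain Dnah8 by 1.95. The others that rose were Krtap13-1, Tmem47, Cym, Lonrf3, Rnf180, Cemip2, Gnb1l, Syce2, Cspg5 and Serinc5, by 0.96 (Serinc5) to 2.13 (Krtap13-1), together with 2 genes with placeholder symbols. Tmem47 rose by 2.05, while its other probe set differed by 0.25.

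Only 2 genes fell, and 1 of them, an olfactory receptor gene, is counted but not named. Nhs, the gene mutated in Nance-Horan syndrome, read 6.26, 6.22 and 6.17 in the controls and 5.86, 5.69 and 5.50 in the knockouts, and fell by 0.53 on the log2 scale (SE 0.10, adjusted p = 0.0463). It lost its call whichever of the 6 arrays was left out (log2 -0.62 to -0.44, adjusted p = 0.0507 to 0.252) and in 6 other alternatives, among them the sex score and the lymphocyte score as covariates (adjusted p = 0.0803 and 0.0593) and a fit of the 6 arrays alone (adjusted p = 0.285). The next lowest by p did not pass. Among them Tmem179, with controls at 6.34 to 6.79 and knockouts at 5.69 to 5.84, differed by -0.80 ± 0.16 (adjusted p = 0.0534), Grhl3, an epithelial transcription factor, by -0.52 ± 0.11 (adjusted p = 0.0858), Tmie by -0.44 ± 0.10 (adjusted p = 0.101) and Dok7 by -0.50 ± 0.12 (adjusted p = 0.124). The fatty acid transporter Slc27a2 had the largest of these differences, -0.93 ± 0.24 (adjusted p = 0.204), but its other probe set differed by -0.02. The others, Best2, Kcng1, Tox, Sct, Bmpr1b, Pramel33, Gltpd2, Tubd1 and Ugt2b34, had adjusted p-values of 0.13 (Best2) to 0.245 (Ugt2b34).

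No gene of the non-canonical NF-kB pathway passed. Of 15 measured members, from receptors through NIK to NF-kB subunits, 13 were higher and the median log2 fold change was 0.27. In 7 of them all knockouts lay above all controls, against 7.83% of all genes. Nfkb2, the p100 precursor and itself a known target of NF-kB, read 6.56, 6.55 and 6.20 in the controls and 7.06, 7.15 and 6.90 in the knockouts (0.60 ± 0.29, adjusted p = 0.88). The subunit gene Relb overlapped between groups (0.28 ± 0.21, adjusted p = 0.97), as did Map3k14, the gene of NIK (0.27 ± 0.21, adjusted p = 0.974). Among the receptors, Cd40 was at 5.51, 5.78 and 5.23 in the controls and 5.85, 6.32 and 6.29 in the knockouts (0.65 ± 0.29, adjusted p = 0.85). The cIAP genes Birc2 and Birc3 differed by 0.07 and 0.12 (adjusted p = 0.99 and 0.983).

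The canonical NF-kB list also held no gene that passed. Of 16 measured subunits and feedback inhibitors, 14 were higher and the median was 0.21. In 6 of them all knockouts lay above all controls, against 7.83% of all genes. The ubiquitin-binding inhibitor Tnip1 had the largest difference, with 6.65, 6.47 and 6.38 in the controls and 7.13, 7.17 and 7.04 in the knockouts (0.62 ± 0.14, adjusted p = 0.0961). Nfkbia, which encodes the inhibitor IkBalpha, lay between 7.90 and 8.23 in the controls and between 8.37 and 8.56 in the knockouts (0.38 ± 0.19, adjusted p = 0.912), and Tnfaip3, or A20, overlapped (0.47 ± 0.40, adjusted p = 0.977).

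In the lists of inflammatory output genes Gbp8 was the only member that passed. None of 24 interferon-stimulated genes passed (median 0.08), nor did any of 16 genes of MHC class I loading (0.10), 9 of MHC class II presentation (0.37, all 9 higher, from 0.14 to 0.97) or 15 TNF superfamily genes (0.04). Of 11 guanylate-binding proteins and immunity-related GTPases, Gbp8 rose, where 0.243% of all genes rose, and 10 were higher (median 0.27). The median absolute log2 difference of all genes was 0.13. Gbp9, at 6.65, 6.64 and 6.59 in the knockouts and 6.20, 5.86 and 4.74 in the controls, differed by 1.03 ± 0.29 (adjusted p = 0.291).

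None of 21 chemokine genes passed (median 0.18), although 4 had all knockouts above all controls, against 7.83% of all genes. Cxcl11, of the chemokine family that binds the chemokine receptor CXCR3 of T cells, read 4.36, 4.77 and 4.93 in the controls. It read 6.70, 6.92 and 6.77 in the knockouts (2.11 ± 0.43, adjusted p = 0.0585). Cxcl10, a further ligand of CXCR3, read 5.02, 4.98 and 4.73 against 7.01, 7.94 and 7.39 (2.54 ± 0.76, adjusted p = 0.376). Cxcl9, of the same family, overlapped between groups, at 5.80 to 7.68 in the controls and 6.74 to 8.04 in the knockouts. Of the 17 lymphocyte markers 15 were higher and none passed (median 0.69), and their part in the values of these genes was not tested. The T cell marker Cd3e was at 5.72 to 6.01 in the controls, 5.60 in knockout 1 and 6.83 and 7.09 in knockouts 2 and 3. Among the knockouts, Cxcl10 and Cxcl11 were lowest in knockout 1, at 7.01 and 6.70, where both still lay above all controls.

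**Figure D3:**
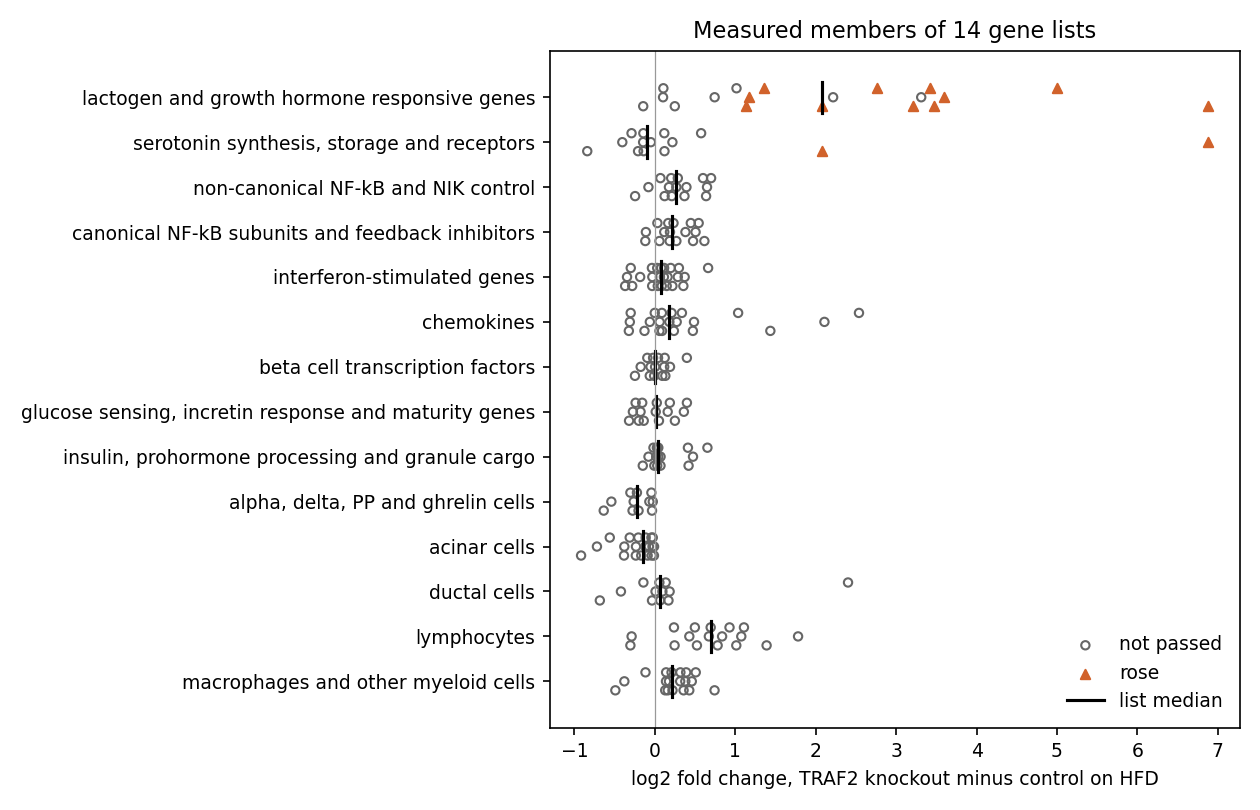
Log2 fold change between HFD TRAF2 knockouts and HFD controls (horizontal axis) of each measured member of 14 gene lists (rows), with filled triangles for genes that rose, open circles for genes that did not pass and vertical bars at list medians. The lactogen list has a median of 2.07 and 11 of 19 members that rose. It includes genes taken from earlier results of these arrays, so these values were partly set by that choice. The beta cell transcription factors lie around 0.00 and the lymphocyte markers have a median of 0.69 with none passing.

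The genes that define beta cell identity and function did not pass the test. Of 15 beta cell transcription factors none passed and the median was 0.00. Mafa, which activates the insulin genes in mature beta cells, read 9.46, 9.18 and 8.75 in the controls and 9.07, 9.40 and 8.90 in the knockouts (-0.01 ± 0.34, adjusted p = 1), and Pdx1 differed by 0.19 ± 0.25 (adjusted p = 0.979). The glucose sensing and maturity genes had a median of 0.01 over 16 members, among them the glucose transporter Slc2a2 (0.02 ± 0.52, adjusted p = 0.999), the incretin receptor Glp1r (0.16 ± 0.15, adjusted p = 0.977) and the maturity marker Ucn3 (-0.18 ± 0.37, adjusted p = 0.99). The SE of Slc2a2 leaves room for a difference of that order in either direction. Ins2 was at 11.86, 11.92 and 11.74 in the controls and 11.95, 11.86 and 11.93 in the knockouts (0.07 ± 0.17, adjusted p = 0.99). The score of 9 beta cell markers was 0.04 in HFD control 3, 0.40 and 0.41 in the other controls and 0.26 to 0.38 in the knockouts.

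Of 15 genes for insulin, prohormone processing and granule cargo, none passed. All knockouts lay above all controls in 2 of them, against 7.83% of all genes. Chgb, the granule protein chromogranin B, read 11.83, 11.98 and 11.52 in the controls and 12.53, 12.42 and 12.33 in the knockouts (0.65 ± 0.17, adjusted p = 0.184). The prohormone convertase gene Pcsk1 differed by 0.47 ± 0.20 (adjusted p = 0.833). Exocytosis genes (17 measured, median 0.13), ion channel subunits of beta cells (16, median 0.05) and disallowed or dedifferentiation genes (17, median -0.02) also held none that passed.

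Markers of the other endocrine cells had values below 0 without passing. All 11 measured markers of alpha, delta, PP and ghrelin cells were below 0, with a median of -0.22. In 6 of them all knockouts lay below all controls, against 6.87% of all genes. Irx1 and Irx2, transcription factors of alpha cells, differed by -0.64 ± 0.23 and -0.54 ± 0.22 (adjusted p = 0.645 and 0.797). Irx2 was at 7.80, 7.65 and 7.84 in the controls and 7.02, 7.35 and 7.31 in the knockouts. The hormone genes Gcg, Sst and Ppy differed by -0.04, -0.04 and -0.03. In whole islets, fewer cells of a type and less RNA per cell cannot be told apart.

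Exocrine and other cells gave the following values. The 20 acinar markers were all below 0 (median -0.14), and their score was 0.85 in HFD control 3, 0.35 and 0.45 in the other controls and 0.21 to 0.46 in the knockouts. Of 12 ductal markers none passed (median 0.06), although Cftr, a chloride channel of duct cells, read 4.32, 3.41 and 4.32 in the controls and 7.30, 6.10 and 5.86 in the knockouts (2.40 ± 0.51, adjusted p = 0.0716). The duct keratin genes Krt19 and Krt7 differed by -0.04 and -0.14. Of 9 Schwann and neural markers Ngfr rose, where 0.243% of all genes rose, while the glial markers Sox10 and S100b differed by -0.05 and 0.06. None of 19 myeloid, 12 endothelial or 15 stellate and fibroblast markers passed (medians 0.22, 0.23 and 0.14).

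Stress and growth programmes held no gene that passed. The medians were 0.33 for 19 immediate early genes, 0.04 for 19 genes of the unfolded protein response, 0.08 for 18 of the integrated stress response, -0.20 for 13 heat shock genes, 0.08 for 21 proliferation genes and 0.06 for 16 genes of apoptosis, survival and cell cycle arrest. Within the last of these, the cell cycle inhibitor Cdkn1a differed by 1.01 (adjusted p = 0.355). Lipid genes of the fatty acid and PPAR list had a median of -0.08 (18 measured) and those of cholesterol synthesis one of 0.12 (16 measured). The other lists, in which none passed either, had medians of 0.13 for cytokines, adhesion molecules and inducible enzymes, 0.05 for IL-6, STAT3 and acute phase genes, 0.14 for complement, 0.06 for hypoxia and glycolysis, -0.10 for respiratory chain subunits, 0.11 for clock genes, 0.01 for antioxidant genes, -0.00 for extracellular matrix, 0.02 for beta cell markers and 0.14 for adipocyte markers.

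The TRAF2 knockout was also compared with its control on chow, on other arrays and with other controls. There 66 genes passed (0.298%), 62 higher (0.28%) and 4 lower (0.018%), and 28 genes passed on both diets, which is 50% of the genes that passed on HFD and 42.4% of those that passed on chow. Of the 54 genes that rose on HFD, 53 were higher in the chow knockouts too, against 46.6% of all genes, and 45 had all 3 chow knockouts above all 3 chow controls, against 4.68% of all genes. The 1 exception in direction was Gpr141b, at -0.09 on chow. Socs2 read 10.10, 8.98 and 9.85 in the chow controls and 11.12, 10.94 and 11.15 in the chow knockouts (1.42, adjusted p = 0.00676).

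The chow values depended on the arrays included. The number passing on chow was 22, 24 and 89 without chow control 1, 2 or 3 and 72, 45 and 10 without chow TRAF2 knockout 1, 2 or 3, and 0 when only the chow arrays compared entered the fit. Without chow control 3, 33 genes passed on both diets and 49 of the 54 genes that rose had the chow knockouts above the controls, against 9.19% of all genes.

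The difference of the knockout effect between the diets was tested as an interaction, and 0 genes passed in limma (0%), with a smallest adjusted p of 0.9997. Sex was spread unevenly over the diets: 5 of the 6 HFD arrays but only 2 of the 6 chow arrays (chow control 1 and chow TRAF2 knockout 1) were female by Xist. With the sex score as a covariate 0 genes passed as well. At an unadjusted p under 0.05 there were 628 (2.83%). Of the 54 genes that rose on HFD 44 had the larger fold change on HFD, with medians of 1.88 on HFD and 1.42 on chow. Without chow control 3 this held for 36, with a chow median of 1.52. These genes were chosen by their HFD values, which favours larger values on HFD. Their counts and medians were partly set by that choice. Tph1 was higher by 4.07 ± 0.88 on chow (adjusted p = 0.0738), where the controls read 4.15, 4.12 and 8.30 and the knockouts 7.87, 10.16 and 10.75. The difference between diets was 2.81 ± 1.25 for Tph1 (unadjusted p = 0.0388, adjusted p = 0.9997). Without chow control 3 Tph1 rose on chow by 5.46 ± 0.62 (adjusted p = 0.000428) and the difference between diets was 1.42 (unadjusted p = 0.107).

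**Figure D4:**
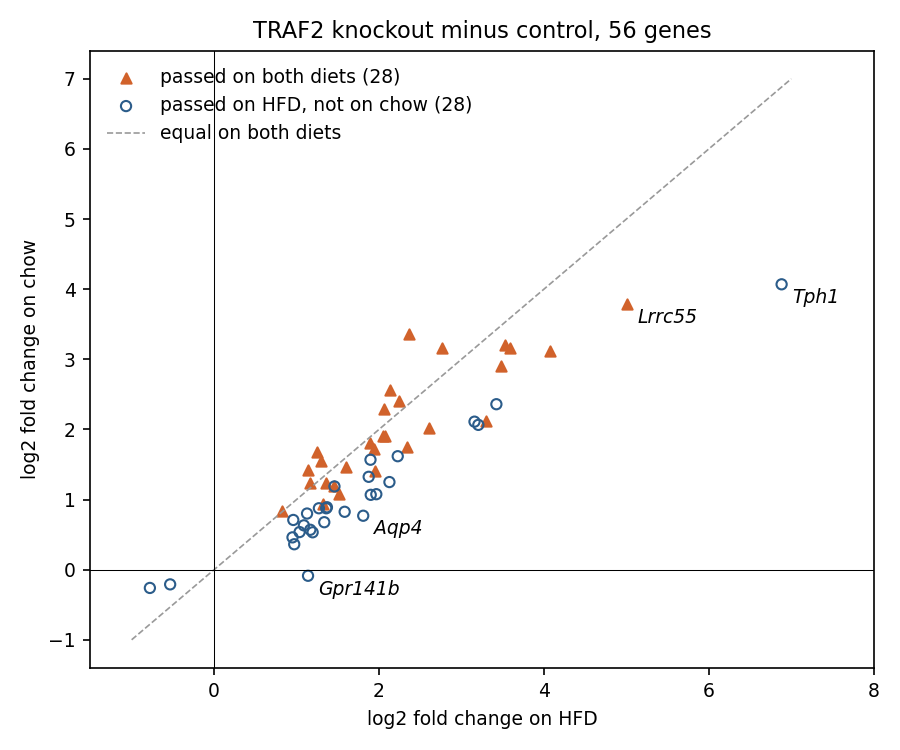
Log2 fold change of TRAF2 knockout minus control on chow (vertical axis) against that on HFD (horizontal axis) for the 56 genes that passed on HFD, whose choice used the horizontal values. Triangles mark the 28 genes that passed on both diets and the dashed line marks equal values. Of the 54 genes that rose on HFD, 53 lie above 0 on chow and 44 lie to the right of the dashed line.

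HFD TRAF2 knockouts were last set against HFD TRAF3 knockouts directly. Of all genes 233 passed (1.05%), 139 higher (0.627%) and 94 lower (0.424%) in TRAF3 knockouts. Of the 56 genes that passed against control, 1 differed between the knockouts. This was Gpr141b, lower by 1.76 ± 0.22 on the log2 scale in TRAF3 knockouts (adjusted p = 0.00143), which read 3.91, 4.86 and 4.27 against 6.07, 6.28 and 5.97 in TRAF2 knockouts. Tph1 was at 11.08, 10.27 and 9.95 in the TRAF3 knockouts, and its difference between the knockouts was -0.55 ± 0.88 (adjusted p = 0.878). Each comparison with the HFD controls uses the same 3 control arrays, against which Tph1 differed by 6.88 in TRAF2 and 6.33 in TRAF3 knockouts, Rerg by 3.30 and 3.04, Cish by 1.35 and 1.06, and Nfkb2 by 0.60 and 1.59.

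The share of the set above that differed between the 2 knockouts, 1 of 56, was near the 1.05% of all genes. Of 19 immediate early genes 11 were lower in TRAF2 than in TRAF3 knockouts, and of 19 myeloid markers 7 were higher in TRAF2 knockouts. Fosb, a subunit of the transcription factor AP-1, read 6.43, 6.28 and 7.02 in TRAF2 knockouts and was higher in TRAF3 knockouts by 5.08 (adjusted p = 0.0204), as were Atf3 by 4.13 and Nr4a1 by 3.15. Retnla, a gene of alternatively activated macrophages, read 8.94, 8.85 and 9.27 in TRAF2 knockouts and was lower in TRAF3 knockouts by 4.91 ± 0.41 on the log2 scale (adjusted p = 5.01e-05), and Lyz1 was lower there by 2.96. The further genes with the largest differences were Npas4 (3.73) and Csrnp1 (2.88), higher in TRAF3 knockouts, and Folr2 (-3.51), F13a1 (-3.33) and Cd209d (-3.20). In TRAF2 knockouts against HFD control, the immediate early genes had a median of 0.33 and the myeloid markers one of 0.22. The immediate early score was -1.22 to -0.72 in HFD controls, -0.79 to -0.56 in TRAF2 knockouts and 0.56 to 1.96 in TRAF3 knockouts. The myeloid score was 0.42 to 1.06, 0.94 to 1.03 and -0.84 to 0.10 in the same order. In both lists the TRAF3 knockouts thus lay apart from the HFD controls as well. The number of genes passing between the knockouts was 91, 60 and 69 without HFD TRAF2 knockout 1, 2 or 3, 137 and 139 without HFD TRAF3 knockout 1 or 2, and 581 with an acinar score as a covariate.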

How the data were processed

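The authors deposited 1 log2 value per probe set and array, made with RMA (background correction, quantile normalization and summary per probe set) per the submitters' processing notes, which also name limma. Versions and the genome build are not given in the sources used here. Values were used as deposited. The 41345 probe sets had 23521 with exactly 1 symbol in the platform annotation, 1814 with several and 16010 with none. Of the 1082 genes with more than 1, the probe set with the highest mean over the 18 arrays was kept, leaving 22180 genes.

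Tests used limma 3.58.1 in R 4.3.3 with 1 fit of 6 group means (12 residual degrees of freedom), two-sided, with Benjamini-Hochberg adjustment over all genes within a comparison and a threshold of 0.05. All 18 arrays entered the fit. In simulated data of the main comparison, 76 of 100 genes changed by 1 on the log2 scale were recovered. Of 100 changed by 2, 93 were recovered, and there were 9 false calls. The simulated noise was normal, independent between genes and equally wide in all groups, and more genes were changed than passed here. Recovery in the real arrays can therefore be lower. Nothing in the labels ties a sample to a single animal, so p-values measure the spread between these samples, whose number limits the precision.

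Named genes are Traf2, the 15 largest rises and falls that passed (empty places filled by the smallest p with all knockouts on 1 side), up to 4 passing or the first 2 members of each list, and 5 per direction elsewhere. Placeholder and olfactory symbols were counted only, and the smaller rises and other list members were singled out after their values were seen. The comparison, its members and the 43 lists (648 of 717 genes measured) were chosen with earlier results of these data known. Probe sets of genes with several symbols were not analysed by gene, and the TRAF3 transcript is not reported here. Alternatives and each array left out in turn are given at the end.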

Additional observations from a re-analysis of the deposited data

Results flagged for a closer look

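When every probe set of the arrays was tested, 13 probe sets with no gene symbol in the annotation used here passed between HFD TRAF2 knockouts and HFD controls (limma, adjusted p under 0.05), 10 higher and 3 lower. They lie outside the genes analysed above, and their log2 differences ran from -1.47 to 4.45. In each of the 13 the knockout arrays did not overlap the control arrays. None of the 1814 probe sets with several symbols passed.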

How the results depend on the processing

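With 3 arrays a group, the number of genes passing between HFD TRAF2 knockouts and controls was 20 to 39 when 1 of the 6 arrays was left out (20 to 38 higher, 0 to 1 lower). It was 107 with a ductal score as a covariate (100 higher, 7 lower), and otherwise 47 to 80 against 56. When every probe set was tested, the number was 57 probe sets, and 43 of the 56 genes were still called. With only the arrays compared 80 genes passed, among them 46 of the 56. The 2 falls became 5 after a further quantile normalization, 1 with the replicate block, 0 with a sex score and 0 with a lymphocyte score as covariates. On chow 66 became 0 with only the arrays compared, 105 with the ductal score, and 10 to 89 leaving out 1 array. The interaction stayed at 0 throughout. Between the HFD knockouts 233 became 581 with the acinar score and 60 to 257 leaving out 1 array. Of 53 named genes that passed, 18 passed whichever of the 6 arrays was left out, 37 passed in every other alternative that tested them, and none reversed. Deviations of same-numbered HFD controls and TRAF2 knockouts correlated at 0.25, -0.03 and 0.24, and those of differently numbered ones at -0.26 to 0.13. With 3 arrays a group, these values cannot decide whether the numbers pair the samples. With the replicate block 58 genes passed. The causes of these shifts were not tested.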
